A study of Mus musculus with 6 samples.

Results

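The axon guidance ligands and receptors of the mouse olfactory bulb were taken as every gene whose symbol belongs to the semaphorins of classes 3 to 7, the plexins, the neuropilins, the Slits and Robos, the ephrins and Eph receptors, the netrins, Dcc or the Unc5 receptors. The rule matched 73 of the 18560 genes in the count table. Of these, 70 were ligands or receptors (36 ligands and 34 receptors), and 3 were matched by their letters only: Unc50, a Golgi protein, Unc5cl, a cytoplasmic UNC5C-like protein, and the antisense transcript Plxna4os1. These 3 were kept apart. The 70 genes held 127692 UMIs, which was 0.151% of all UMIs in the clustered cells.

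Guidance cues are secreted or membrane-bound proteins that attract or repel growing axons and migrating cells. Semaphorins signal through plexins, with the neuropilins as binding partners for most of class 3. Slits bind Robo receptors, ephrins bind Eph receptors on the neighbouring cell, and netrins bind Dcc and the Unc5 receptors. In the olfactory bulb these systems are known for sorting sensory axons to their glomeruli and for guiding the neuroblasts that reach the bulb throughout adult life, and the same genes serve vessels, glia and immune cells.

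The libraries were made from dissociated olfactory bulbs of male and female C57BL/6NJ mice of 14 weeks with the 10x Chromium 3′ v2 kit, and the labels name no transgene or mutant allele. Per the labels, the dissection also took in some olfactory epithelium. There were 2 control libraries without manipulation, 2 libraries from mice with naris occlusion (olfactory deprivation by a plug in the nostril) and 2 libraries from mice trained in an olfactory discrimination task. Occlusion and training lasted 6 weeks. Per the study's text, the trained mice were water-deprived and worked for a water reward. It names no water restriction for the other mice, so training and water restriction cannot be told apart here. Occlusion was unilateral, and the study's text also names the open side as a control, whereas the labels give the control animals no manipulation; the labels were followed. Each library was a pool of animals, so the 2 libraries of a condition were the replicates, and Xist and Y-linked transcripts showed replicate 1 of every condition to be male and replicate 2 female.

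Of 51426 annotated cells, 50671 fell into the 40 deposited clusters, 18 neuronal and 22 nonneuronal. Libraries held 6705 to 10570 annotated cells and 11841160 to 17065083 UMIs, with median UMIs per cell from 1028 to 1723.5 and median mitochondrial shares from 9.25% to 14.4%. Trained replicate 1 had both the lowest median UMI count and the highest mitochondrial share. Of the 49931 distinct cell barcodes, 1461 (2.93%) occurred in more than 1 library. Of 43 marker genes, 41 had their highest mean level in a cluster of their own cell type, and the exceptions were Sox10, highest in OPC, and Cspg4, highest in Mural2.

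A level below is the UMIs of a gene per 1000000 UMIs (CPM), summed over the cells of a cluster in 1 library, given as the mean ± SD over the 6 libraries. Because the kit counts 1 tag at the 3′ end of each molecule, these values do not scale with transcript length. The clusters were built from the same counts, so the levels are a description, and no test was made between clusters. In such sums, fewer cells with a transcript and fewer transcripts per cell cannot be told apart.

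Guidance genes were spread over neurons and nonneuronal cells alike. Of the 68 members with at least 20 UMIs, 32 had their highest mean level in a nonneuronal cluster (47.1%), against 46.9% of all genes with that many UMIs. Of all 70 members, 18 ligands were highest in a neuronal and 18 in a nonneuronal cluster. For the receptors the counts were 20 in a neuronal and 14 in a nonneuronal cluster. These counts take in Ntng2 and Robo3, which had under 20 UMIs and a neuronal highest cluster. The 3 mitral and tufted cell clusters together held the peak of 15 of the 68, a share of 22.1% beside 20.3% of all such genes. The external plexiform interneurons (n18-EPL-IN) held 9 (13.2%, beside 4.89%), the clusters of axis B 8 (11.8%, beside 8.21%), and the endothelial and mesenchymal clusters 6 each (8.82%, beside 4.03% and 5.02%). Other shares were below those of all genes. The clusters of axis A held 3 (4.41%, beside 14.5%) and n04-Immature 1 (1.47%, beside 4.05%). The mural clusters and the microglia held 2 each (2.94%, beside 6.00% and 5.39%). Only Ntng2 (13 UMIs) and Robo3 (10 UMIs) had fewer than 20 UMIs in all clustered cells.

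The highest cluster of a gene was often not separable from the next. In 11 of the 68 members with at least 20 UMIs the same cluster was highest in all 6 libraries, a share of 16.2%, against 11.5% of all such genes. These 11 were Epha5, Ntng1, Efnb3, Nrp1, Slit2, Sema5a, Sema6c, Sema3b, Ephb1, Unc5b and Efna1. Peaks in n15-M/TC-1 (90 cells, with 6 in the smallest library), n16-M/TC-2 (116 cells) and n18-EPL-IN (161 cells) rested on few cells, and their SDs are to be read with that. The median peak of the 70 members was 78.5 CPM, against 59.8 CPM over all genes with at least 20 UMIs.

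**Figure D1:**
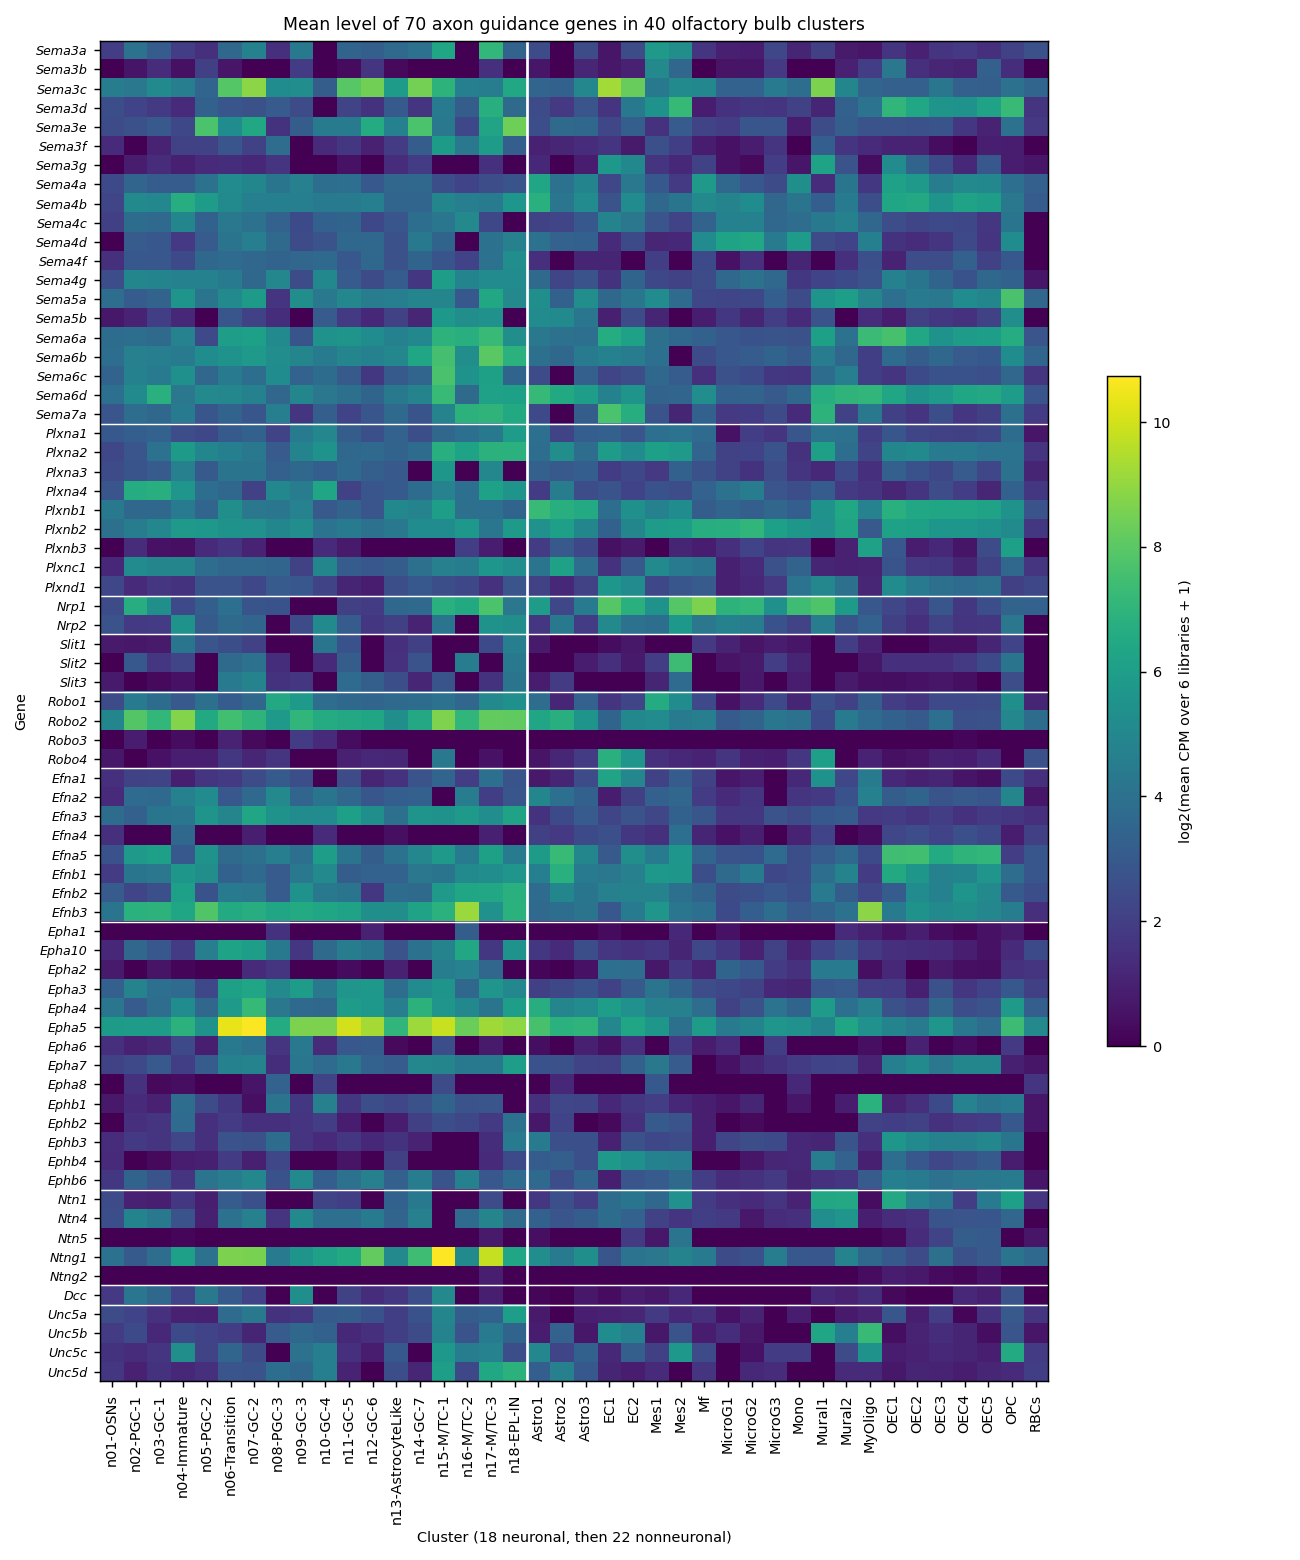
Mean level of each of the 70 genes (rows, grouped by family) in each of the 40 clusters (columns, 18 neuronal left of the white line and 22 nonneuronal right of it), as log2 of the mean CPM over 6 libraries plus 1. The brightest cells are Epha5 in n07-GC-2 (1651 CPM) and Ntng1 in n15-M/TC-1 (1711 CPM), and Sema3c, Robo4 and Sema7a have their highest means in EC1.

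The promoters of 2 of the 6 members highest in EC1, Robo4 and Sema3c, are printed. The letters GGAAG or their reverse complement CTTCC, the core of many ETS-factor sites, are in capitals. Any part of these windows in the levels was not tested. The sequences are RefSeq's for GRCm38.p6, 5′ to 3′ on the gene's strand, from 250 bases before to 50 after a transcript start. Of the 70 members, 60 had an entry. Robo4 lies at chr9:37401722-37402021 on the + strand and Sema3c at chr5:17574566-17574865 on the + strand.
Robo4: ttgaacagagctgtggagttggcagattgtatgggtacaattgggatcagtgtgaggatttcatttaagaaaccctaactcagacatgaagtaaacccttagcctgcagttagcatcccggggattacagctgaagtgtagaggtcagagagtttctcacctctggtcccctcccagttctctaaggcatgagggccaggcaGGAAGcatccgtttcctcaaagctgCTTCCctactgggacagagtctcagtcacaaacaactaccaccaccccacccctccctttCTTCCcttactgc
Sema3c: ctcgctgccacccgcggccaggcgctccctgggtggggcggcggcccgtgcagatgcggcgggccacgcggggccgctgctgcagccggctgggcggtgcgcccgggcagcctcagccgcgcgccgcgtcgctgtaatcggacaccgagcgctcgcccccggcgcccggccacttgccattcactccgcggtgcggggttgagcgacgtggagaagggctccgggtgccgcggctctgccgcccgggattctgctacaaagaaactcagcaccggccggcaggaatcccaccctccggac
Robo4 held 3 matches and Sema3c none. Of the 7 promoters of the 6 endothelial members, 5 held the letters, and so did 71.4% of all 32851 promoters of this length.

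Among the class 3 semaphorins, secreted ligands of neuropilin and plexin receptors, Sema3c was the most abundant. It stood at 612 ± 80.4 CPM in EC1, with libraries from 539.8 to 738.1 and a median of 573.5. The next cluster, n07-GC-2, stood at 463 ± 47.1 CPM and was lower in 6 of 6 libraries, while EC1 was above every cluster in 5 of 6. Sema3c thus had a vascular and a granule cell peak, with 393 CPM in Mural1 and a level of 349.6 CPM in n12-GC-6 but one of 10.3 CPM among red blood cells. Sema3e, a ligand that binds plexin D1 directly, had its highest mean in n18-EPL-IN at 327 ± 234 CPM. Its libraries there ran from 105 to 641 CPM and overlapped those of the next clusters, n05-PGC-2 at 207 ± 43.9 CPM and, at 205 CPM, n14-GC-7. Sema3d was highest in OPC at 155 ± 16.8 CPM and nearly level with Mes2 (145 ± 43.4 CPM) and OEC1 (132 ± 11.6 CPM). Sema3a was highest in n17-M/TC-3 at 136 ± 50.8 CPM and had no UMI in n16-M/TC-2.

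The semaphorins of classes 4 to 7 are membrane-bound, and those reaching 100 CPM had their highest levels in glia, endothelial cells or projection neurons. Sema6b (257 ± 31.8 CPM in n17-M/TC-3) and Sema6c (200.6 ± 85.0 CPM in n15-M/TC-1) were highest in mitral and tufted cell clusters. Sema6b also stood at 116 ± 39.5 CPM in n18-EPL-IN. Sema6a was highest in OEC1, an olfactory ensheathing cell cluster, at 196 ± 20.4 CPM. The ensheathing cells wrap the sensory axons on their way into the bulb. Sema6d reached 154 ± 150 CPM in n15-M/TC-1, which did not differ beyond its spread from the 144 ± 8.22 CPM of Astro1. Naris-occluded replicate 2, with 452 CPM, decided that order, and without it the mean in n15-M/TC-1 was 94.9 CPM. Sema7a, a lipid-anchored semaphorin that binds plexin C1 and integrins, was highest in EC1 at 206 ± 53.2 CPM, above n17-M/TC-3 (128 ± 28.3 CPM) in 6 of 6 libraries. Mural1 held 124 ± 61.5 CPM of Sema7a, and EC1 was above every other cluster in 5 of 6 libraries. Sema5a was highest in OPC at 200.5 ± 23.4 CPM, with 86.4 CPM in the next cluster, n17-M/TC-3. Sema4b was highest in Astro1 at 113 ± 14.7 CPM, close to n04-Immature at 101 ± 9.10 CPM, and the other class 4 genes stayed under 100 CPM in every cluster.

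The plexins divided by subfamily. All 4 class A plexins, the usual partners of neuropilins, were highest in neurons, with Plxna2 reaching 119 ± 40.1 CPM (n17-M/TC-3) and Plxna4 106 ± 10.7 CPM in n03-GC-1. All 3 class B plexins were highest in nonneuronal clusters. Plxnb1 was highest in Astro1 (148 ± 23.9 CPM), Plxnb2 in MicroG2 (133 ± 22.1 CPM), and Plxnb3 in MyOligo (69.4 ± 9.14 CPM, 204 of its 410.0 UMIs) and OPC (66.6 ± 12.2 CPM, 80 UMIs), with 6.93 CPM in the next cluster. Plxnd1 was highest in EC1 at 48.3 ± 12.3 CPM, the lowest peak of the plexins, and Plxnc1 in Astro2 at 69.7 ± 33.6 CPM.

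Neuropilin 1, a receptor for class 3 semaphorins and vascular growth factors, was highest in macrophages. Nrp1 stood at 391 ± 47.7 CPM in the macrophage cluster, with libraries from 311 to 438 CPM and a median of 398 CPM, above every other cluster in 6 of 6 libraries. It followed at 239 ± 60.7 CPM in EC1, 237 ± 82.2 CPM in Mes2 and 216 CPM in Mural1, and these 3 did not differ beyond their spread. The neuronal cluster n17-M/TC-3 (204 ± 38.9 CPM) lay within that spread too, above EC2 (112 ± 32.0 CPM) and Mural2 (57.4 ± 17.48 CPM), and n02-PGC-1 held 103 ± 17.9 CPM. Nrp2 was weaker, with 52.3 ± 29.6 CPM in Mes2, 44.4 ± 24.4 CPM (n17-M/TC-3) and, among the immature neurons, 43.2 CPM.

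Robo2, a receptor for Slit, was among the leading genes of the immature neurons. It stood at 426 ± 39.7 CPM in n04-Immature, with libraries from 388 to 475 CPM and a median of 418 CPM. The mean in n15-M/TC-1 was 404 ± 212 CPM and could not be separated from it, and n17-M/TC-3 held 282 ± 34.4 CPM. Robo1 had its highest mean in Mes1 at 97.8 ± 19.3 CPM, beside 88.8 ± 30.8 CPM in the periglomerular cluster n08-PGC-3. Robo4, the endothelial Robo, stood at 113 ± 9.60 CPM in EC1 and had a median of 0.948 CPM over the 40 clusters. The ligand Slit2 had its highest level in Mes2, at 166 ± 64.9 CPM (133 of its 378 UMIs, in 230 cells), beside 22.7 ± 55.7 CPM in the next cluster, n16-M/TC-2, while Mes1 held 2.86 CPM. Slit1 and Slit3 stayed at or under 26.6 CPM in every cluster.

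Epha5, a receptor of the A ephrins, was the most abundant member, with 18695 UMIs. It stood at 1651 ± 123 CPM in n07-GC-2, with libraries from 1434 to 1804 CPM and a median of 1667 CPM, and at 1320.4 ± 82.5 CPM in n06-Transition and 1017 ± 116 CPM in n11-GC-5. The order of these 3 clusters was the same in 6 of 6 libraries. In n02-PGC-1 to n05-PGC-2 it was at or under 119 CPM. It was also the leading member among red blood cells, at 32.2 ± 28.4 CPM (24 UMIs), and it was at 56.5 ± 35.8 CPM in the sensory neurons and at 58.5 CPM in the macrophages. The part of free RNA in values of that size was not tested. All 9 EphA genes were highest in a neuronal cluster, and the second was Epha4 at 146 ± 24.7 CPM, also in n07-GC-2. Of all genes with at least 20 UMIs, 46.9% were highest in a nonneuronal cluster and the rest in a neuronal one. Several of the EphA peaks rested on little, with 21 UMIs in all for Epha1 and 29 for Epha8. Epha2, at 26.2 ± 54.6 CPM in n16-M/TC-2, was above the next cluster in 2 of 6 libraries and above every cluster in 1. The nonneuronal cluster Mural2 held 20.6 ± 10.2 CPM of Epha2. Epha7 stood at 63.2 ± 64.9 CPM in n18-EPL-IN, with the nonneuronal cluster OEC2 next at 34.1 ± 8.84 CPM.

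Of the EphB receptors, Ephb1 was the strongest, at 114 ± 20.3 CPM in MyOligo, the myelinating oligodendrocytes, against 21.1 ± 10.3 CPM in their precursors. The ephrin ligand with the highest level was Efnb3. It peaked in n16-M/TC-2 at 554 ± 72.9 CPM, with libraries from 469.7 to 682 CPM and a median of 552 CPM, while n17-M/TC-3, the largest mitral and tufted cluster, held 42.3 ± 25.2 CPM. MyOligo followed at 470.2 ± 55.8 CPM and OPC held 21.96 ± 7.68 CPM. Efnb2 was highest in n18-EPL-IN (113 ± 43.8 CPM) and Efnb1 in Astro2 (112 ± 63.5 CPM). Efna5 was highest in ensheathing cells, with 178 ± 21.7 CPM in OEC2 and 173 ± 14.04 CPM in OEC1, which traded places between libraries. Astro2 followed at 151 ± 44.6 CPM, above the 93.0 to 138 CPM of the other OEC clusters.

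The netrin family split in a like manner. Ntng1, a lipid-anchored netrin-G that binds a partner other than Dcc, stood at 1711 ± 272 CPM in n15-M/TC-1, with libraries from 1470 to 2217 CPM, and at 885 ± 145 CPM in n17-M/TC-3, but at 33.4 ± 29.9 CPM in n16-M/TC-2. The cluster n16-M/TC-2 was thus high in Efnb3 and low in Ntng1, the reverse of n17-M/TC-3. Ntng1 was also at 389.6 ± 72.7 CPM in n06-Transition and 386 ± 49.1 CPM in n07-GC-2. The secreted netrin Ntn1 was highest in OEC1 (88.8 ± 13.3 CPM) and Mural2 (88.3 ± 7.18 CPM), which did not differ. Dcc, its attractive receptor, was near the floor, with 210.0 UMIs in all and a highest mean of 39.8 ± 31.0 CPM in n09-GC-3. The repulsive receptors were better represented, with Unc5b at 153 ± 13.98 CPM in MyOligo (6.19 CPM in OPC), Unc5d at 118 ± 94.1 CPM in n18-EPL-IN and Unc5c at 95.03 ± 28.9 CPM in OPC.

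Each cluster had a leading member. Epha5 led in n01-OSNs, n06-Transition, n07-GC-2 to n14-GC-7, n18-EPL-IN, Astro1, Astro3 and the red blood cells, and Robo2 led in n02-PGC-1, n03-GC-1 and n04-Immature. Efnb3 led in n05-PGC-2, n16-M/TC-2 and MyOligo, and Ntng1 led in the other 2 mitral and tufted clusters. Sema3c led in EC1, EC2 and Mural1, Efna5 in Astro2 and OEC2 to OEC5, Sema6a in OEC1, Sema5a in OPC and Sema6d in Mural2. Nrp1 led in the macrophages, MicroG1, MicroG2, Mono and Mes2, Plxnb2 in MicroG3 and Robo1 in Mes1. The summed level of all 70 members ran from 228 ± 67.6 CPM in the red blood cells to 5426 ± 429.7 CPM in n15-M/TC-1.

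**Figure D2:**
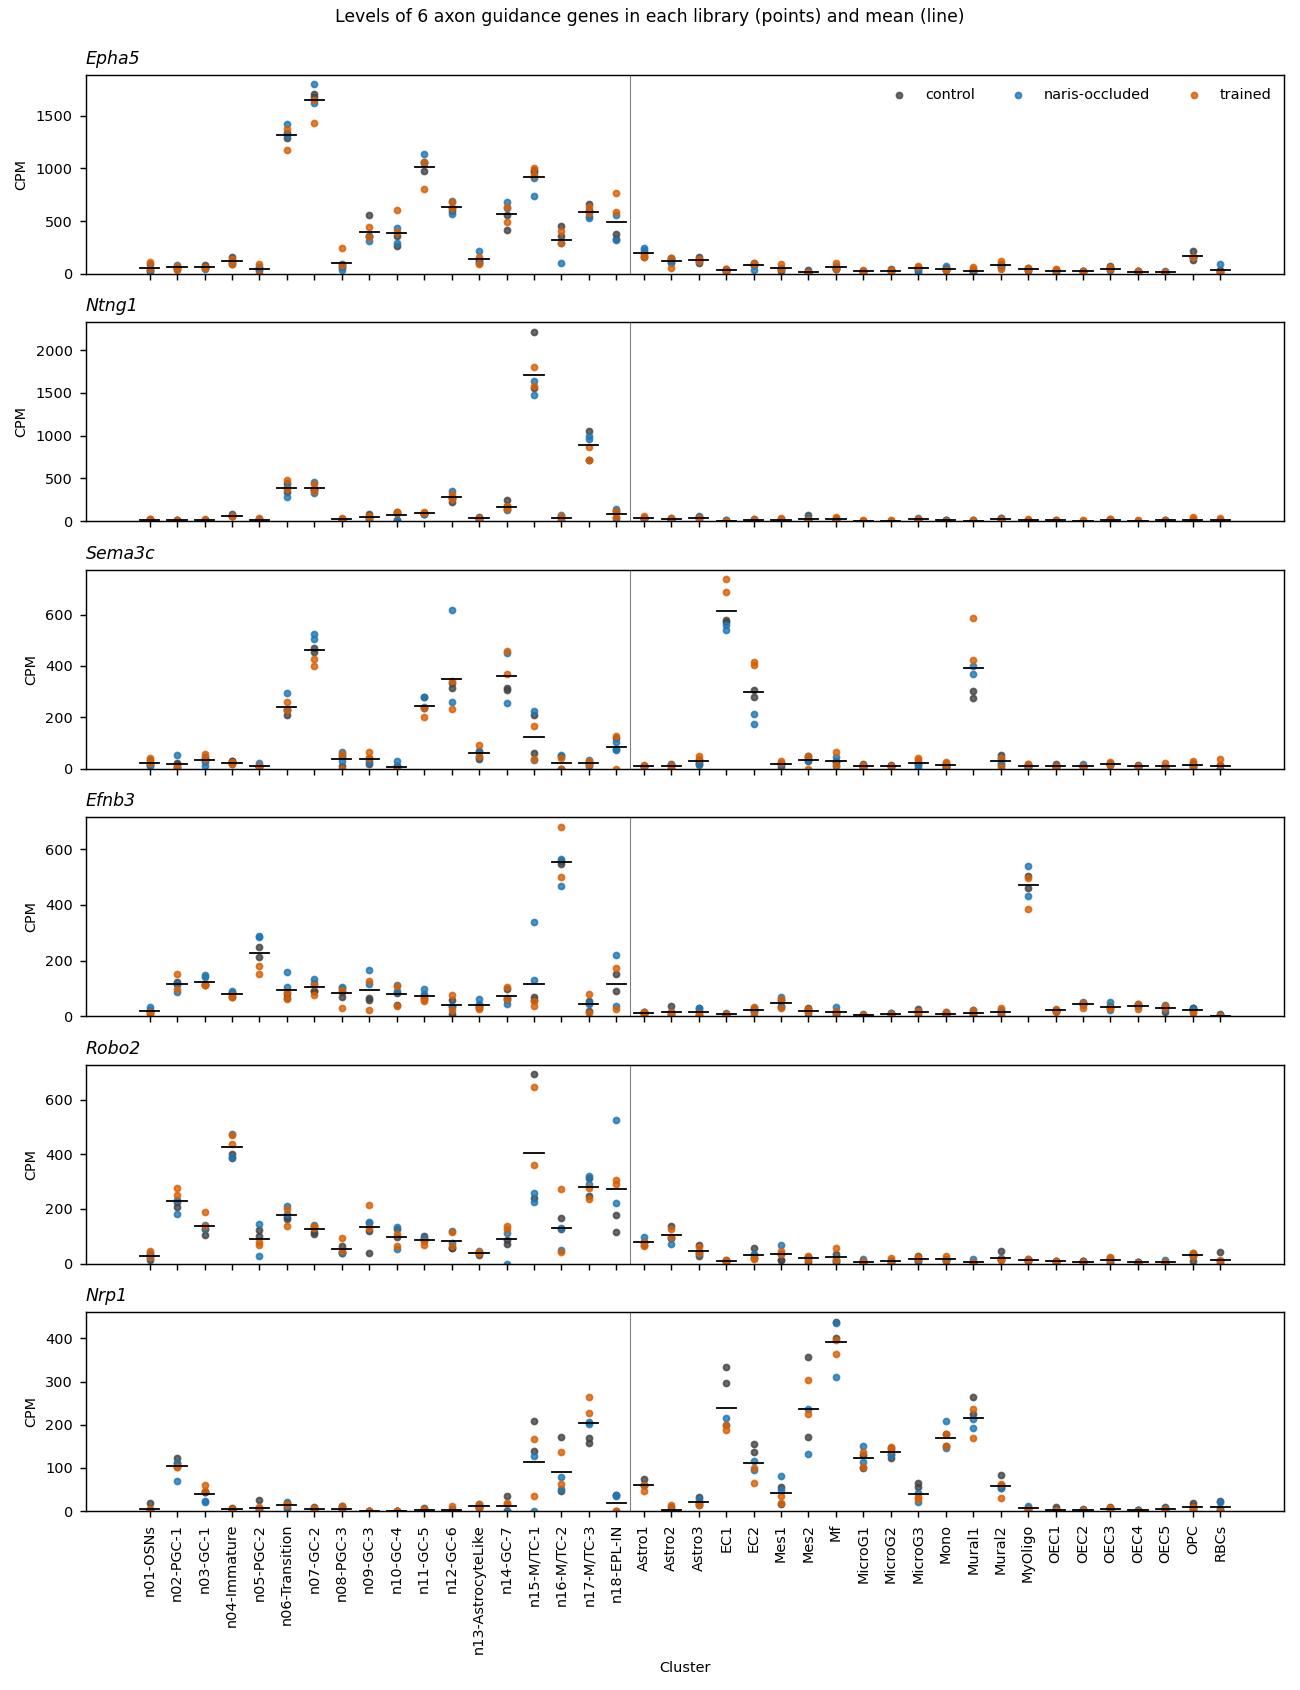
Levels (CPM, linear axes from 0) of Epha5, Ntng1, Sema3c, Efnb3, Robo2 and Nrp1 in each cluster, with 1 point for each of the 6 libraries coloured by condition and a line at the mean. Efnb3 peaks in n16-M/TC-2 and MyOligo and Ntng1 in the other mitral and tufted clusters, and the 6 points of Nrp1 in the macrophages lie between 311 and 438 CPM.

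The study placed n04-Immature at the start of 2 axes of interneuron maturation, axis A with 8 clusters (n02, n03, n05, n08, n10, n11, n12 and n14) and axis B with 3 (n06, n07 and n09). Levels in n04 were divided by those in the pooled cells of each axis in every library, with 1 CPM added to both, and the ratio is given on the log2 scale. Against axis A, 12 of the 70 members were higher in n04 by over 1 log2 unit in all 6 libraries, a share of 17.1% beside 2.33% of all 18560 genes, and 10 were lower, a share of 14.3% beside 6.07%. When each cell's own CPM was averaged in place of summing UMIs, the split was 8 higher and 11 lower, and with a pseudocount of 10 CPM it was 6 higher and 5 lower. Against axis B, 8 members were higher (11.4%, beside 4.21% of all genes) and 16 lower (22.9%, beside 7.95%), and with a pseudocount of 10 CPM 5 were higher and 10 lower. With each cluster of an axis given equal weight, 10 were higher and 8 lower against axis A, and 5 higher and 16 lower against axis B. Of all genes 7412 reached a mean of 20 CPM in n04 or axis A, and of the members 31 did.

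The genes higher in the immature neurons than in both axes included the receptors Unc5c, Nrp2 and Robo2. Unc5c stood at 38.6 ± 4.60 CPM in n04 and at 2.77 ± 1.57 CPM in axis A, a log2 ratio of 3.52 ± 0.82, and at 7.26 ± 2.61 CPM in axis B, a log2 ratio of 2.32 ± 0.56. Nrp2 stood at 43.2 ± 8.03 CPM in n04, 5.78 ± 2.51 CPM in axis A and 9.81 ± 4.72 CPM in axis B. Robo2 stood at 123 ± 14.7 CPM in axis A and 143 ± 15.2 CPM in axis B, with log2 ratios of 1.79 ± 0.11 and 1.58 ± 0.14. Efnb1, Sema4b and Efna4 completed the 6 members that were higher than both axes by over 1 log2 unit in every library. The share of all genes higher than both axes was not counted, so this number has no background beside it.

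Of the plexins of class A, Plxna4 stood at 47.9 ± 7.87 CPM in n04 and at 6.86 ± 3.71 CPM in axis B (log2 ratio 2.77 ± 0.65), while its ratio against axis A had no constant sign. Plxna2 stood at 57.0 ± 6.15 CPM in n04, 13.9 ± 2.35 CPM in axis A and 21.2 ± 3.58 CPM in axis B, with log2 ratios of 1.96 ± 0.19 and 1.39 ± 0.34. The ligand Efnb2 stood at 65.05 ± 22.5 CPM in n04, 9.53 ± 2.59 CPM in axis A and 20.7 ± 7.46 CPM in axis B, with log2 ratios of 2.62 ± 0.70 and 1.60 ± 0.67. Plxna2 and Efnb2 were thus above both axes in 6 of 6 libraries, though not by over 1 log2 unit against axis B in each.

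Among the genes lower in the immature neurons, Epha5 was the most abundant in both axes. It stood at 119 ± 28.4 CPM in n04, 433 ± 53.6 CPM in axis A and 1460 ± 107 CPM in axis B, with log2 ratios of -1.88 ± 0.39 and -3.64 ± 0.37. Sema3c stood at 23.4 ± 6.23 CPM in n04, 129 ± 6.25 CPM in axis A and 362 ± 38.5 CPM in axis B. Sema3e had the lowest ratio against axis A, -3.14 ± 0.74, followed by Nrp1 (-2.62 ± 0.38), Sema3c (-2.45 ± 0.42) and Efna5 (-2.37 ± 0.57). Against axis B the lowest were Epha10 (-4.15 ± 0.56) and Slit3 (-4.07 ± 0.78), then Sema3c (-3.93 ± 0.40) and Sema3e (-3.79 ± 0.58). In all, 7 members were lower than both axes by over 1 log2 unit in every library. For all genes the share lower than both axes was not counted either. Epha10 stood at 2.73 ± 1.36 CPM in n04 and 62.1 ± 9.72 CPM in axis B.

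**Figure D3:**
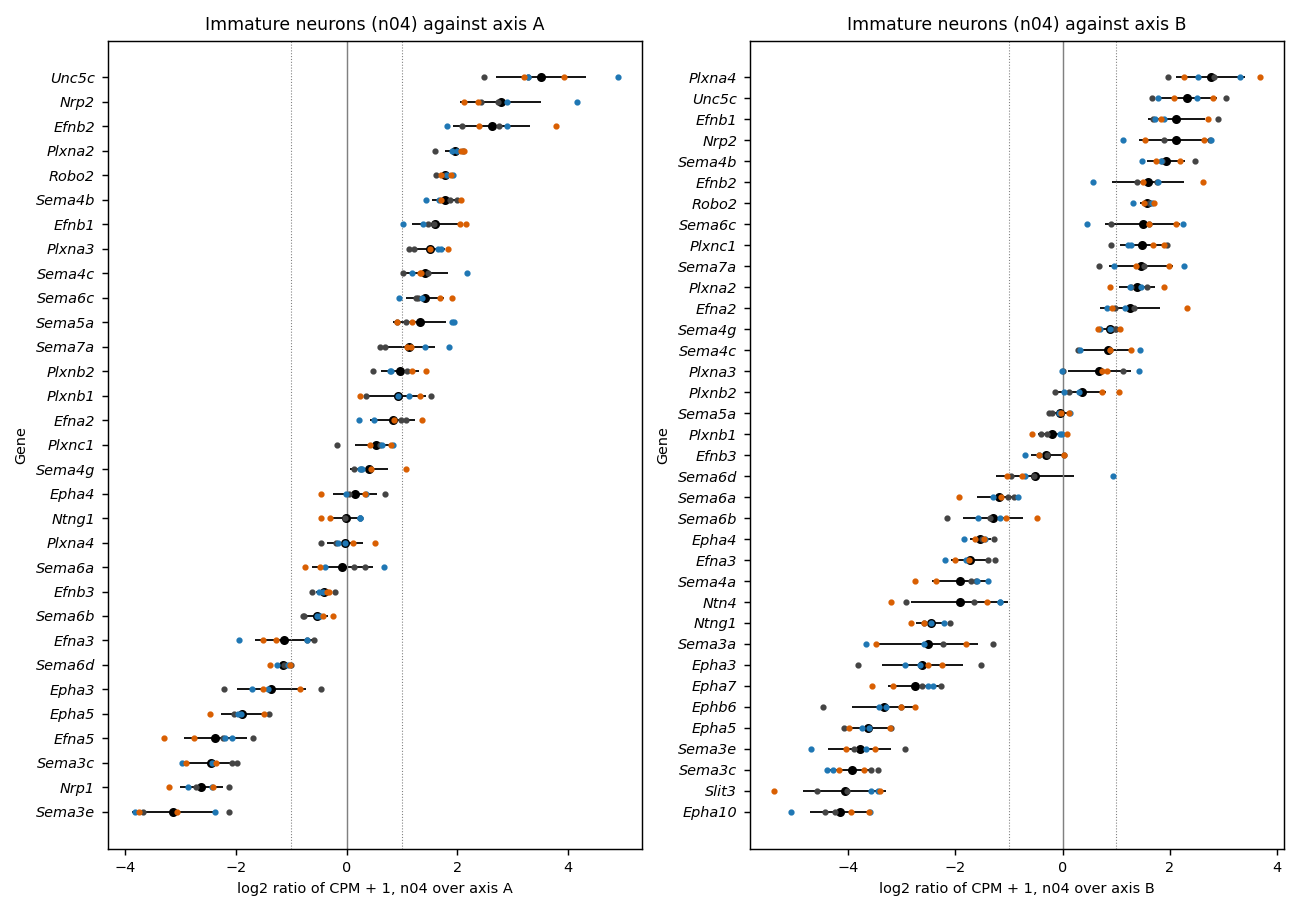
Log2 ratio of CPM plus 1 between n04-Immature and axis A (left) or axis B (right) for members with a mean of at least 20 CPM on either side, with black points and bars for mean and SD over 6 libraries and small points for single libraries coloured as controls (grey), naris-occluded (blue) and trained (orange). Dotted lines mark ratios of 1 and -1, and Epha5, Sema3c and Sema3e lie left of -1 in both panels.

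To ask whether deprivation or training of the sense of smell moved these genes, UMIs were summed per library in 16 cell groups and tested with edgeR's quasi-likelihood test, with Benjamini-Hochberg adjustment over all genes of a cell group. In these groups 65 members passed the filter on low counts in at least 1 group, giving 344 pairs of a member and a cell group in each comparison. With an adjusted p below 0.05 as the call, 1 pair was called in each comparison. Over all genes the called shares were 0.0609% for naris-occluded against control, 0.0537% for trained against control and 0.144% for trained against naris-occluded. An unadjusted p below 0.05 was reached by 37 pairs (10.8%), 22 pairs (6.40%) and 39 pairs (11.3%), beside 4.76%, 5.79% and 7.57% of all pairs tested. The 3 comparisons share libraries and are not independent. For a cell group, library values below are CPM scaled by edgeR's TMM factors over the genes that passed the filter, unlike the levels above. The values of single clusters and the marker sums below are unscaled.

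Under occlusion Sema3a fell in the mitral and tufted cells, the projection neurons of the bulb. It stood at 156 and 183 CPM in the control libraries, 60.8 and 83.3 CPM in the naris-occluded libraries and 115 and 162 CPM in the trained libraries. Both occluded libraries were below both control libraries, and the trained libraries overlapped the controls. The log2 change was -1.27 (SE 0.30, edgeR adjusted p = 0.0263), from 52 and 52 UMIs in the controls and 27 and 19 in the occluded libraries. In this cell group 0.33% of 5765 genes were called lower.

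The same order of libraries was seen in n17-M/TC-3 alone, with unscaled levels of 157 and 207 CPM in controls and 67.1 and 95.9 CPM in occluded libraries for Sema3a. The adjusted p by edgeR was 0.189 without control replicate 2 and 0.367 without naris-occluded replicate 1, with log2 changes of -1.15 and -1.01, and DESeq2 gave -1.26 with an adjusted p of 1. The edgeR adjusted p was 0.104 without normalization factors, 0.273 with cells of at least 1000 UMIs and 0.0770 with cells of at most 25% mitochondrial UMIs. The mitral and tufted marker sum (Cdhr1, Slc17a7, Eomes and Tbx21) was 4146 to 4368 CPM in control and 3272 to 3547 CPM in occluded libraries, and the sensory neuron marker sum (Omp, Gng13 and S100a5) was 1784 to 1790 CPM and 673 to 873 CPM. The inhibitory interneuron marker sum was 297 to 394 CPM in control and 227 to 228 CPM in occluded libraries, and the immature neuron marker sum was 512 to 520 CPM and 583 to 624 CPM. The ensheathing cell marker sum was 1139 to 1165 CPM in control and 652 to 1105 CPM in occluded libraries. The sums for astrocytes, macrophages, monocytes and red blood cells were also lower in both occluded libraries than in both controls, and those for oligodendrocyte precursors and microglia (44.2 to 65.6 CPM in control and 69.3 to 118 CPM in occluded libraries) were higher. Of the mitral and tufted cells, n16-M/TC-2, where Sema3a had no UMI, made up 9.05% to 9.29% in control and 11.8% to 14.5% in occluded libraries, and n17-M/TC-3 83.3% to 87.7% and 79.1% to 81.4%. Their part in the result was not tested. In n04-Immature Sema3a was at 2.85 ± 1.59 CPM and did not pass the filter, and the difference of the occlusion effects between the 2 cell groups was -0.15 on the log2 scale with an SE of 1.48 (edgeR adjusted p = 0.996), an error too wide to tell whether the effects differed.

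With training, Plxna2 rose in the endothelial cells. It stood at 29.1 and 44.2 CPM in the control libraries, 38.1 and 40.8 CPM in the naris-occluded libraries and 118 and 63.7 CPM in the trained libraries. Both trained libraries were above the other 4, and they differed from each other by more than the other 4 did. Against controls the log2 change was 1.36 (SE 0.27, edgeR adjusted p = 0.0398), where 0.228% of 9643 genes were called higher, and against occluded libraries it was 1.24 (SE 0.27, edgeR adjusted p = 0.0473), where 0.415% were called higher.

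Trained replicate 1, the library with the fewest UMIs per cell, carried more of this change, with 123 Plxna2 UMIs against 47 in trained replicate 2. Without it the log2 change was 0.81 against controls (edgeR adjusted p = 0.559) and 0.68 against occluded libraries (edgeR adjusted p = 0.604). The call against controls was also lost without control replicate 1 (log2 1.07, edgeR adjusted p = 0.136) and without either occluded library (edgeR adjusted p = 0.0890 and 0.0826), and the call against occluded libraries without either of them (0.322 and 0.364). In EC1 alone the unscaled levels of Plxna2 were 127 and 65.6 CPM in the trained libraries and 29.8 to 47.1 CPM in the others. The endothelial marker sum (Cldn5, Slco1c1 and Ly6c1) was 9869 and 13080.2 CPM in the trained libraries and 10747 to 12331 CPM in the others, and the mural marker sum was 663 and 548 CPM against 579 to 681 CPM. The astrocyte marker sum was 208 and 171 CPM in the trained libraries and 226 to 274 CPM in the others. The ensheathing cell marker sum was 665 to 846 CPM in the trained and 1256 to 1432 CPM in the occluded libraries, and the microglia sum was 11.9 to 13.4 CPM and 21.7 to 28.1 CPM. The monocyte and mesenchymal sums were also lower in both trained than in both occluded libraries, that for oligodendrocyte precursors was higher, and the mitral and tufted sum was lower in both trained libraries than in both controls. The part of these sums in the result was not tested. The difference of the training effects between endothelial and olfactory ensheathing cells was 1.61 on the log2 scale (SE 0.36, edgeR adjusted p = 0.370) against controls and 1.35 (SE 0.37, edgeR adjusted p = 0.419) against occluded libraries.

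The promoters of the 2 called genes are shown so that the windows near their starts can be read. They are RefSeq's for GRCm38.p6, 5′ to 3′, with Sema3a at chr5:13396534-13396833 on the + strand and Plxna2 at chr1:194619579-194619878 on the + strand.
Sema3a: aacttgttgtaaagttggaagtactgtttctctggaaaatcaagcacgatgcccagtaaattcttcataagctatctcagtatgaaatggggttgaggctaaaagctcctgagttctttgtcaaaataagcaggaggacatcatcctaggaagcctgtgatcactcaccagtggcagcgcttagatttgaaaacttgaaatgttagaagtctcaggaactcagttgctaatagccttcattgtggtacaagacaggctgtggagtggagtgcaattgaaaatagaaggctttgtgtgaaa
Plxna2: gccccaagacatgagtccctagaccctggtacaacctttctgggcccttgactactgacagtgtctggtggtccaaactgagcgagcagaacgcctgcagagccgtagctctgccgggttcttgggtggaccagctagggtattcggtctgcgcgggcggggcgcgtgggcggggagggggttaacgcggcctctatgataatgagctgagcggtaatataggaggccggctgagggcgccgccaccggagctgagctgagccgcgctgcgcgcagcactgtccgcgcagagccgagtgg
The letters TGACG, the core of a cyclic AMP response element, or their reverse complement CGTCA, would be in capitals. Neither window held them, and 20.8% of all promoters of this length did.

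The other members with the smallest p were not called, and most of them were in endothelial cells. That cell group also held 1 of the 68 calls over all genes for occlusion, 25 of the 60 for training and 57 of 161 for trained against occluded. Nrp1 stood at 295 and 268 CPM in the control libraries, 193 and 178 CPM in the naris-occluded libraries and 179.6 and 186 CPM in the trained libraries. The controls were thus above all 4 manipulated libraries, with log2 changes of -0.60 (SE 0.14, edgeR adjusted p = 0.312) under occlusion and -0.63 (SE 0.14, edgeR adjusted p = 0.0754) with training. With the replicate number, and so the sex of the pool, as a block, the change with training was called (edgeR adjusted p = 0.0307). Sema3c stood at 520.3 and 518 CPM in controls, 474 and 471 CPM in occluded and 706 and 661 CPM in trained libraries, a log2 difference between trained and occluded libraries of 0.53 (SE 0.13, edgeR adjusted p = 0.0720). This difference was called with the block (edgeR adjusted p = 0.0400) and by DESeq2 (adjusted p = 0.0249). Plxnd1, a vascular plexin, stood at 52.2 and 60.6 CPM in controls and 27.9 and 32.8 CPM in occluded libraries (log2 -0.87, SE 0.23, edgeR adjusted p = 0.514).

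Outside the endothelium, Sema6d in the olfactory ensheathing cells stood at 58.1 and 57.3 CPM in trained and 80.3 and 85.0 CPM in occluded libraries (log2 -0.52, SE 0.12, edgeR adjusted p = 0.143). Plxnc1 in the mesenchymal cells stood at TMM-scaled values of 3.02 and 11.6 CPM in controls and 47.0 and 50.7 CPM in trained libraries, on 1 and 3 UMIs against 18 and 11. Its fitted log2 change of 2.76 had an SE of 0.74 and an edgeR adjusted p of 0.815.

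**Figure D4:**
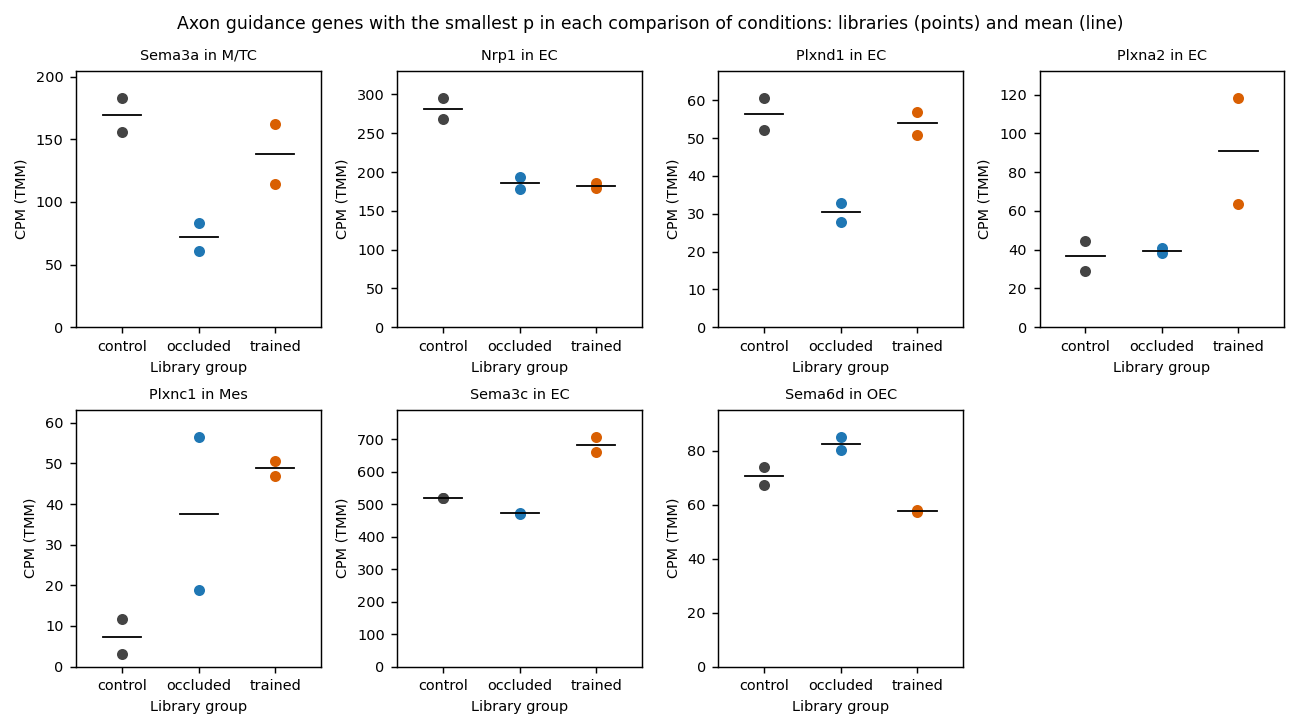
Library values (points, CPM scaled by TMM, axes from 0) and means (lines) of the members with the smallest p in each comparison of conditions, in control, naris-occluded and trained libraries. Sema3a is lower in both occluded libraries than in both controls, and Plxna2 is at 118 and 63.7 CPM in the trained libraries against 29.1 to 44.2 CPM in the others.

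The 37 genes fixed as a list of guidance partners and downstream effectors, from other receptors such as Neo1 and Dscam to the collapsin response mediators, were all in the table. Their median peak was 151 CPM, beside 78.5 CPM for the ligands and receptors. Of the 37, 17 were highest in a neuronal cluster and more of them in a nonneuronal one. Over all genes with at least 20 UMIs, a nonneuronal cluster was highest for 46.9%, and a neuronal one for the larger part. Dpysl2, a microtubule-binding mediator of semaphorin signals, was highest in MyOligo at 1638 ± 159 CPM. Crmp1 and Dpysl3, its relatives, were highest in n04-Immature at 320.3 ± 12.98 CPM and 303 ± 34.2 CPM. All 37 were tested in at least 1 cell group, in 346 pairs a comparison, and edgeR called none of them. For occlusion, training and trained against occluded, 15, 24 and 17 pairs had an unadjusted p below 0.05. Over all pairs tested the shares were 4.76%, 5.79% and 7.57%. The median log2 changes of the 37 genes were -0.03, 0.02 and 0.04. DESeq2 called none of them either.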

How the data were processed

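Cells from dissociated olfactory bulbs were captured with the 10x Chromium 3′ v2 kit in 6 libraries, 2 for each of 3 conditions. The authors deposited raw UMI counts per gene and cell and 2 annotations. Per the labels, reads were handled with Cell Ranger 2.0.0 on mm10 and cells with Seurat 2.2.1; the study kept cells with at least 200 genes and removed doublets. The deposited mitochondrial fraction of each cell was used for the shares by library and in an alternative. The authors' normalized table was not used. Cluster names were those deposited, and the numbering of the OEC, Astro, MicroG and Mes clusters differs from the study's supplementary table. Libraries were taken from the annotation's library column; for 17275 cells of the trained libraries the cell name carries the other trained library's number. 1123 barcodes without a cluster and 755 neurons without a subcluster were left out.

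UMIs were summed per cluster or cell group and library. Levels are CPM of these sums. Library values of cell groups in the condition tests are CPM scaled by TMM factors. Condition effects were tested in 16 cell groups with edgeR 4.0.16 (quasi-likelihood test, TMM factors, filterByExpr, all 6 libraries in 1 fit, Benjamini-Hochberg adjustment over all genes of a cell group, threshold 0.05) under R 4.3.3. An SE is the log2 change divided by the square root of F. Differences of effects between 2 cell groups were tested on 12 sums by an interaction term, without a term for the library. With 2 libraries a condition, p-values measure the spread between pools. The edgeR code was tested on simulated counts. DESeq2 1.42.0, other factors and filters and left-out libraries were alternatives.

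The genes and lists were chosen with earlier results of these data known. Named genes were, in each family, the member with the highest mean level and any other reaching 100 CPM in a cluster, the leading member of each cluster, the called members and the 3 with the smallest p in each comparison, and the 5 largest ratios in each direction for n04 against each axis among members with 20 CPM on either side; further members were named after their values were seen.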

Additional observations from a re-analysis of the deposited data

Results flagged for a closer look

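Guidance genes were also counted in cells that entered none of the comparisons. In the 1123 barcodes without a cluster, which held 3019633 UMIs, 67 of the 70 members exceeded 3 UMIs, the limit that a count of 0 allows. In the 755 neurons that had no subcluster, 65 members exceeded 3 UMIs of 2418462 in all. The share of all genes over this limit was not set beside these counts, so they show nothing particular to guidance genes.

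The most counted members there were Epha5 (1172 UMIs, 388 CPM in the barcodes without a cluster, and 2140 UMIs, 885 CPM in the left-out neurons) and Sema3c (330 UMIs, 109 CPM, and 856 UMIs, 354 CPM). Epha1 and Ntng2 did not exceed 3 UMIs in either set.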

How the results depend on the processing

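Of the 29 members reaching 100 CPM, the level in the highest cluster moved by less than 1 SD in 281 of 290 comparisons with 10 alternatives. Leaving out 1 of 6 libraries cannot move a mean by 1 SD, so 6 of the alternatives were bound to show no move. The 9 moves came with each cell's own CPM averaged (4), cells of at least 1000 UMIs (3) and the control libraries alone (2). The count of members highest in a nonneuronal cluster was 30 to 34 when 1 library was left out, and the counts against axis A and axis B were 22 to 23 and 24 to 28. A pseudocount of 10 CPM in place of 1 lowered the axis A count from 22 to 11 and the axis B count from 24 to 15. The count with the same highest cluster in every library was 6 with cells of at least 1000 UMIs, 31 in the control libraries alone, where 2 libraries need to concur, and 11 to 14 when 1 library was left out.

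The calls between conditions were sensitive to the processing, each comparison having 1 call. For naris-occluded against control the count was 0 without normalization factors, 0 with DESeq2, 0 with cells of at least 1000 UMIs, 0 with cells of at most 25% mitochondrial UMIs, and 0 to 1 when 1 library was left out. For trained against control it was 0 with DESeq2, 0 with cells of at least 1000 UMIs, 3 without the filter on low counts, 2 with the largest cluster of each class and 0 to 5 when 1 library was left out. For trained against naris-occluded it was 0 without normalization factors, 5 without the filter, 0 with cells of at least 1000 UMIs, 0 with cells of at most 25% mitochondrial UMIs, 0 with the largest cluster of each class and 0 to 6 when 1 library was left out, the highest count coming without trained replicate 2. The cause was not tested. DESeq2 gave no adjusted p for Plxna2 in endothelial cells. None of the 9 named changes reversed its direction. This was largely fixed in advance, because the 9 were chosen by smallest p and their compared libraries did not overlap. The log2 change of Sema3a in mitral and tufted cells ran from -1.45 to -1.01 and kept its call in 8 of 14 alternatives, and that of Plxna2 in endothelial cells ran from 0.81 to 1.70 against controls (8 of 13) and from 0.68 to 1.57 against occluded libraries (6 of 13).

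With the replicate number as a block the counts were 1 for occlusion, 2 for training (with Nrp1 in endothelial cells) and 3 for trained against occluded (with Sema3c and Sema7a in endothelial cells). Same-numbered libraries share the sex of the pool. Their deviations from the condition means had correlations across genes between -0.093 and 0.095 in the 16 cell groups, and the numbers were not taken as pairs. Xist, Tsix, Ddx3y, Eif2s3y, Kdm5d and Uty were left out of these correlations. A correlation over all genes cannot show whether sex matters for a single gene. The difference of a condition effect between 2 cell groups was run in 1 form. The precision is limited by 2 libraries a condition and by counts such as 19 to 52 UMIs for Sema3a.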

Other observations

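Of the 3 genes matched by their letters only, the antisense transcript Plxna4os1 was highest in MicroG2 at 58.2 ± 11.4 CPM (mean ± SD over 6 libraries). Unc50 had its highest mean in n07-GC-2 at 142 ± 9.02 CPM, beside 140.1 ± 82.4 CPM in n18-EPL-IN on 23 UMIs.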
